A study of Mus musculus with 3 samples.

Results

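The set described here is 7 genes of cholesterol synthesis, chosen by name among 18545 measured genes: Hmgcs1, Sqle, Insig1, Idi1, Fdps, Fdft1 and Cyp51. They were followed in single-cell RNA-seq of dark-reared mouse retinas at 8 weeks of age, in 3 libraries of 1 pool each. The WT library came from C57BL/6J mice of both sexes on vehicle chow. The rd10-vehicle and rd10-TMB libraries came from female rd10 mice, which carry the rd10 allele of Pde6b, the rod phosphodiesterase beta subunit, and lose their rods. The rd10-vehicle mice received the same base chow, and the rd10-TMB mice received chow with tamsulosin, metoprolol and bromocriptine, which block α1-adrenergic receptors, block β1-adrenergic receptors and activate D2-like dopamine receptors. According to the labels each library pooled 1 retina from each of 4 mice, whereas a smaller number of rd10 mice is stated in the study. With 1 library a group no test between groups was possible, every interval below covers counting error only, and sex differs along with genotype in the comparisons with WT, except in a setting that kept only WT cells with an Xist UMI and no Y-linked UMI. That setting filtered WT cells alone, keeping 245 of their Müller glia-like cells and leaving out 285. As it asks for a detected UMI, it may also change the depth of the WT cells.

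The libraries held 4478 cells (WT), 5952 cells (rd10-vehicle) and 4812 cells (rd10-TMB), and yielded 18882951, 37002532 and 29192530 unique molecular identifiers (UMIs, 1 per captured mRNA molecule). Cells were grouped into the deposited clusters, and a cluster was named by markers. The 10 classes compared were Müller glia (MG)-like, rod-like, cone-like, rod bipolar cell (RBC)-like, ON and OFF cone bipolar-like, amacrine-like, endothelial-like and the unnamed clusters 6 and 10, whose leading genes mixed classes (Cartpt, Igfn1 and Vsx1 in cluster 6, and Cck, Lamp5 and Dync1i1 in cluster 10). All 11 MG markers were raised in the MG-like cells. Levels are given as CPM, the UMIs of a gene per 1000000 UMIs of the cells of 1 class in 1 library. Across libraries 25 barcodes were shared, touching 50 cells, and leaving these cells out moved no ratio of a member by more than its counting error.

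Cells build cholesterol from acetyl-CoA through mevalonate, isoprenoid diphosphates, squalene and lanosterol. The genes of the pathway are transcribed together by SREBP2, which is held in the endoplasmic reticulum when sterols are plentiful and released to the nucleus when they run low. In the retina cholesterol is both made locally and taken up from the circulation, and glia are known to supply lipid to neurons. Among the members, Hmgcs1 makes HMG-CoA at the start of the mevalonate pathway, Idi1 interconverts the isoprenoid isomers, and Fdps builds farnesyl diphosphate. Fdft1 joins farnesyl units to squalene, Sqle oxidizes squalene and is a rate-limiting step, and Cyp51 demethylates lanosterol. Insig1 is no enzyme: it retains the SREBP escort protein SCAP in the endoplasmic reticulum and is itself an SREBP target.

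The members are known as targets of one transcription factor, so the stretches just before the starts of 3 of them are shown, 1 for an early enzyme, 1 for a late enzyme and 1 for the regulator. They are RefSeq sequence of build GRCm38.p6, written 5′ to 3′ on the strand of the gene, and capitals mark every match, on either strand, to the sterol-response-type word TCACNCCAC, to the word CCAAT or to the GC-box word GGGCGG. The stretches are chr13:119690101-119690350 (plus strand) for Hmgcs1, chr5:28071162-28071362 (plus strand) for Insig1 and chr5:4104747-4104947 (minus strand) for Cyp51.
Hmgcs1: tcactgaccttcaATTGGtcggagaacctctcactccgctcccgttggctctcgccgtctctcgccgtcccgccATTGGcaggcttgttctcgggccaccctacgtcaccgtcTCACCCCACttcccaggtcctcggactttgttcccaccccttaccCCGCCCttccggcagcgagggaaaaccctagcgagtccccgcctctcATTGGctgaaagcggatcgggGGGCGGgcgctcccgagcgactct
Insig1: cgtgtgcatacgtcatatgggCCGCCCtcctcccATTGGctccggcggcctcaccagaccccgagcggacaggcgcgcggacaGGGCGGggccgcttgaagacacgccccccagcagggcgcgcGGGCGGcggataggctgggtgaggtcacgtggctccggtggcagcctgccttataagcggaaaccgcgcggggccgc
Cyp51: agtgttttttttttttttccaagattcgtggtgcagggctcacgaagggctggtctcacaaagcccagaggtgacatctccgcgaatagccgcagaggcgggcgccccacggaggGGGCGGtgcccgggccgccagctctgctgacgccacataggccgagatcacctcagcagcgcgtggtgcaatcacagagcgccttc
Of the 7 members 4 matched a promoter in the table (these 3 and Idi1), each with a window from 250 bases before to 50 bases after the start. TCACNCCAC was found in 1 of these 4 windows, in Hmgcs1 at position -137 from the start, and in 1.24% of all 32851 promoter windows. The words CCAAT and GGGCGG were each found in all 4 windows (CCAAT of Cyp51 at -29, outside the printed stretch), beside 37.4% and 35.7% of all windows. A match is a description of the letters and not of a bound site.

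Of the members Hmgcs1 lies at chr13:119690351-119708260 on the plus strand, Idi1 at chr13:8885606-8892396 (plus), Sqle at chr15:59315092-59331193 (plus) and Insig1 at chr5:28071412-28078662 (plus) in the same annotation. Cyp51 lies at chr5:4080674-4104697, Fdps at chr3:89093588-89101967 and Fdft1 at chr14:63145150-63181687, all on the minus strand. The reads are from transcript 3′ ends, and for 3 members other annotated transcripts hold part of the same sequence on one strand or the other. Fdft1 ends inside Ctsb, a lysosomal protease gene on the opposite strand, with 774 bases of overlap, and 100% of the 60-base words in the last 500 transcript bases of Fdft1 also occur in Ctsb transcripts read on the opposite strand, and 0% on the same strand. For Fdps 65.3% of these words occur in 6 other annotated genes, all with Gm names, on the same strand, and for Cyp51 24.3% occur in Akap9, again only on the opposite strand. Reads of Fdps and its copies may thus be split between genes, and the overlaps of Fdft1 and Cyp51 bear on their counts only where reads are counted without strand, whereas 0% of the words of Hmgcs1, Sqle, Insig1 and Idi1 were shared.

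In WT the amacrine-like cells stood far above every other compared class. The sum of the 7 genes was 1310 CPM (95% interval 1270 to 1351) in amacrine-like cells of WT, 567.9 CPM in cluster 6 and 372.9 CPM (352.4 to 394.3) in MG-like cells. The amacrine-like sum was 3.51-fold (3.29 to 3.75) that of MG-like cells in WT, 3.05-fold (2.71 to 3.42) in rd10-vehicle and 3.46-fold (3.09 to 3.87) in rd10-TMB. Below MG-like cells in WT came cluster 10 at 371.9 CPM, OFF cone bipolar-like cells at 323.3 CPM and ON cone bipolar-like cells at 302.9 CPM, and each of these neighbours in the order, MG-like cells included, overlapped the next. Rod-like (226.9 CPM), cone-like (216.1 CPM), endothelial-like (210.6 CPM) and RBC-like cells (191.9 CPM) lay below. The interval of ON cone bipolar-like cells (270.9 to 337.7) stood apart from that of rod-like cells (205.4 to 250.03), and each of the 4 lowest overlapped the next. Further classes too small to compare also held high sums in WT, with 1154 CPM in 37 retinal ganglion cell (RGC)-like cells, 1018 CPM in 20 astrocyte-like cells and 454 CPM in 18 horizontal-like cells. Astrocyte-like cells had 970.6 CPM in rd10-vehicle (88 cells) and 749.1 CPM in rd10-TMB (33 cells).

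**Figure D1:**
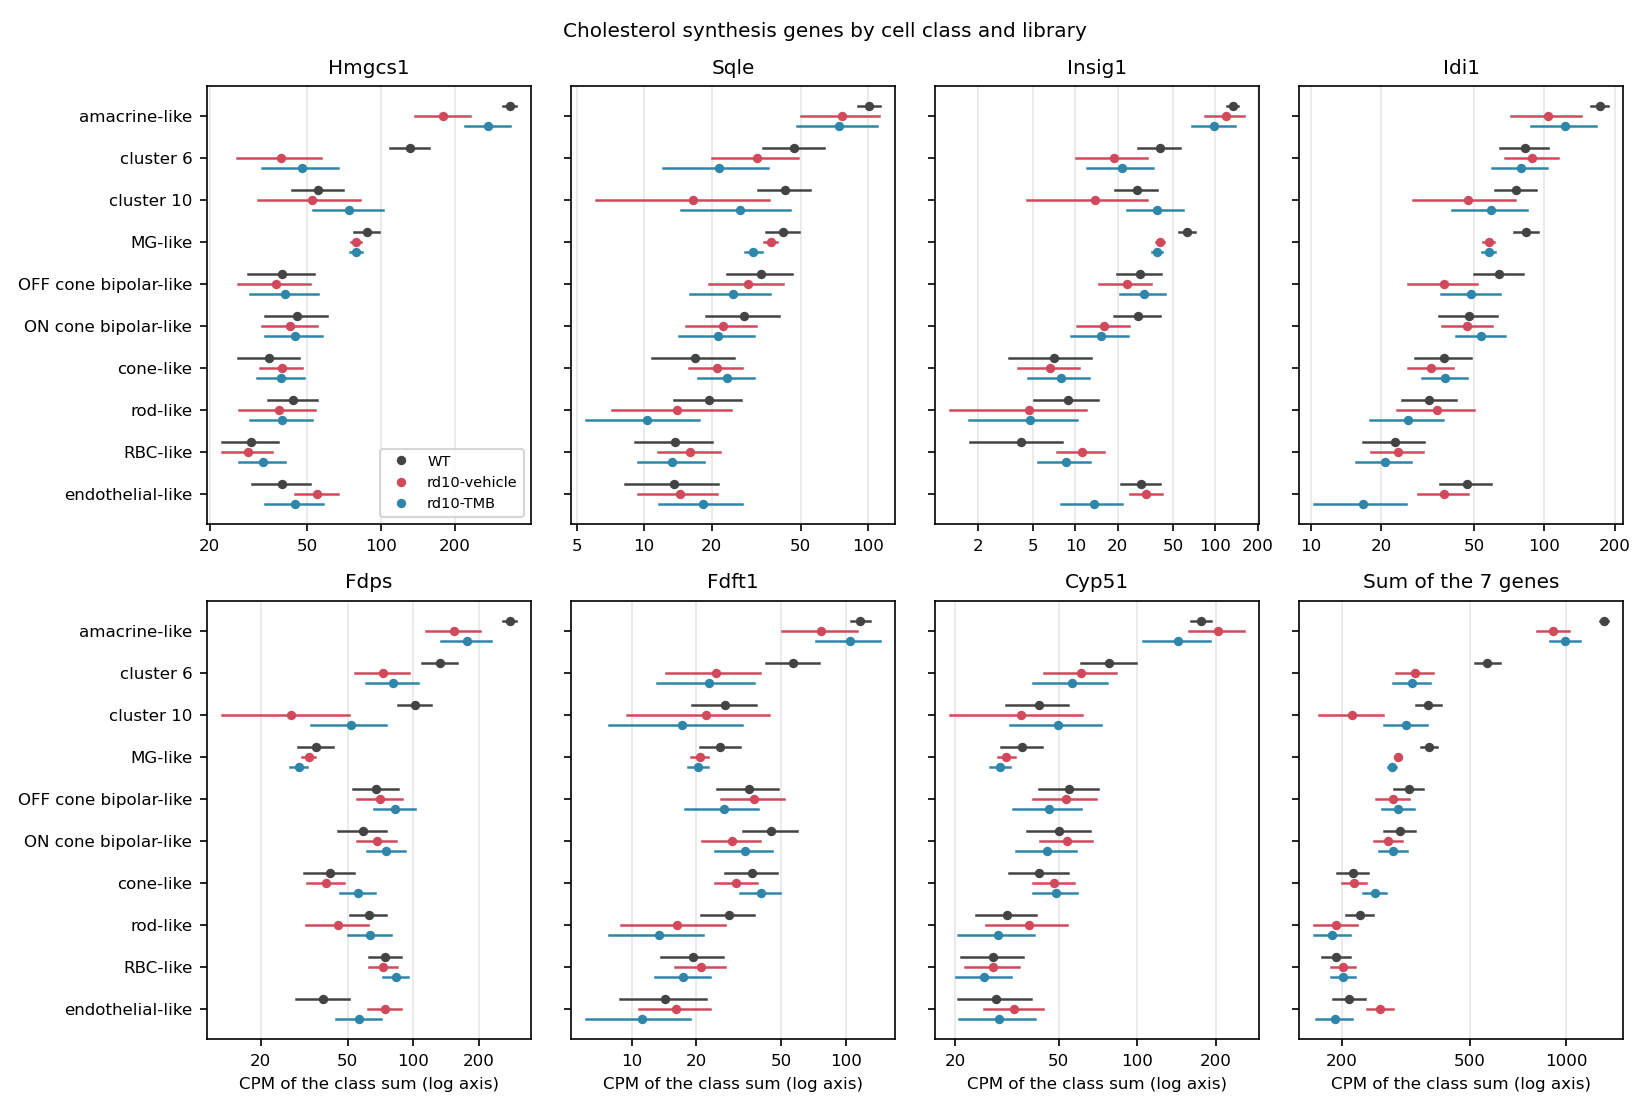
Levels of the 7 genes and their sum (CPM, log axis) in the 10 compared cell classes, with 1 point per library and bars for the exact 95% Poisson interval, which covers counting error only. Amacrine-like cells are highest in the WT library for every gene, with a sum of 1310 CPM beside 372.9 CPM in MG-like cells.

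Insig1 spanned the widest range of the members. In WT it stood at 132.4 CPM in amacrine-like cells, 62.7 CPM in MG-like cells and 4.07 CPM in RBC-like cells, a 32.5-fold range over the classes, against 25.4-fold in rd10-vehicle and 20.7-fold in rd10-TMB. These folds are imprecise, since the lowest class held 8, 4 and 6 Insig1 UMIs and was RBC-like in WT but rod-like in both rd10 libraries. Hmgcs1 spanned 11.3-fold, 6.27-fold and 8.30-fold in the same libraries. The order of the classes also differed between genes, which is a statement on each gene's own order and not on levels between genes. Fdps in WT was lowest in MG-like cells, at 35.8 CPM with endothelial-like cells close above, and RBC-like cells held 2.07-fold (1.62 to 2.66) as much, whereas Insig1 in RBC-like cells was 0.0650-fold (0.0277 to 0.130) of its MG-like level. Across the 32 pairs of a class and a library, Pearson's r between members ran from 0.408 (Insig1 and Fdft1) to 0.876 (Sqle and Idi1). The points share libraries and classes, so these are descriptions only. Among 7398 genes ranked by likeness to the mean pattern of the members, those near the top included 2900097C17Rik (r = 0.862), 6330403K07Rik (0.848), Morf4l2 (0.845) and Srebf2 (0.828), which encodes SREBP2.

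The comparison of MG-like cells asked how the glia of the degenerating retina, with and without TMB, stood to those of WT. Every member had a lower CPM in both rd10 libraries than in WT, most clearly Insig1 and Idi1. Insig1 was at 62.7 (WT), 40.0 (rd10-vehicle) and 38.4 CPM (rd10-TMB), log2 ratios to WT of -0.65 (-0.87 to -0.42) and -0.71 (-0.93 to -0.47). Both rd10 libraries were lower than WT and close to each other. Idi1 was at 83.4, 57.7 and 57.8 CPM, ratios of -0.54 (-0.72 to -0.34) and -0.53 (-0.72 to -0.33), and thus also low in both rd10 libraries. Both comparisons with WT use the same WT library, so a chance deviation of that library enters both.

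Of the 5 other enzymes, Sqle was at 41.6 (WT), 36.7 (rd10-vehicle) and 30.7 CPM (rd10-TMB), and its interval to WT lay below 0 only for rd10-TMB (-0.45, -0.71 to -0.16). Hmgcs1, at 87.4, 79.0 and 79.1 CPM, had a ratio of -0.15 (-0.33 to 0.04) in rd10-vehicle and of -0.15 (-0.33 to 0.05) in rd10-TMB. Fdps was at 35.8, 33.1 and 29.8 CPM. Fdft1 was at 25.9, 20.8 and 20.4 CPM, and Ctsb, whose transcripts overlap it, had ratios of 0.25 and 0.10. Cyp51 was at 36.1, 31.5 and 29.8 CPM. For Hmgcs1, Fdps, Fdft1 and Cyp51 each interval against WT held 0, so that for these genes no difference was detectable at this depth.

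A gene is called here when its CPM differed at least 1.5-fold and it had at least 50 UMIs over both libraries. In MG-like cells 1 of the 7 members, Insig1, was called lower in rd10-vehicle than in WT and 0 were called higher, where 9.31% of all 12404 genes were lower and 8.64% higher. In rd10-TMB it was again Insig1 lower and 0 higher, where 8.46% of 11945 genes were lower and 6.64% higher. One call in 7 is thus near the background. The 7 members had a median log2 ratio of -0.21 (rd10-vehicle) and -0.36 (rd10-TMB), beside -0.06 and -0.08 over all genes.

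Between the rd10 libraries the MG-like cells differed little. Of the 7 members 0 were called for rd10-TMB over rd10-vehicle, where 1.1% of 13021 genes were called higher and 2.2% lower. Hmgcs1 had a log2 ratio of 0.00 (-0.10 to 0.11) and Idi1 of 0.00 (-0.12 to 0.12), so both intervals stayed within 0.12 log2 units of 0. Sqle was the exception, with a ratio of -0.26 (-0.42 to -0.10), under the fold limit. The median of the members was -0.06, beside -0.02 over all genes.

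**Figure D2:**
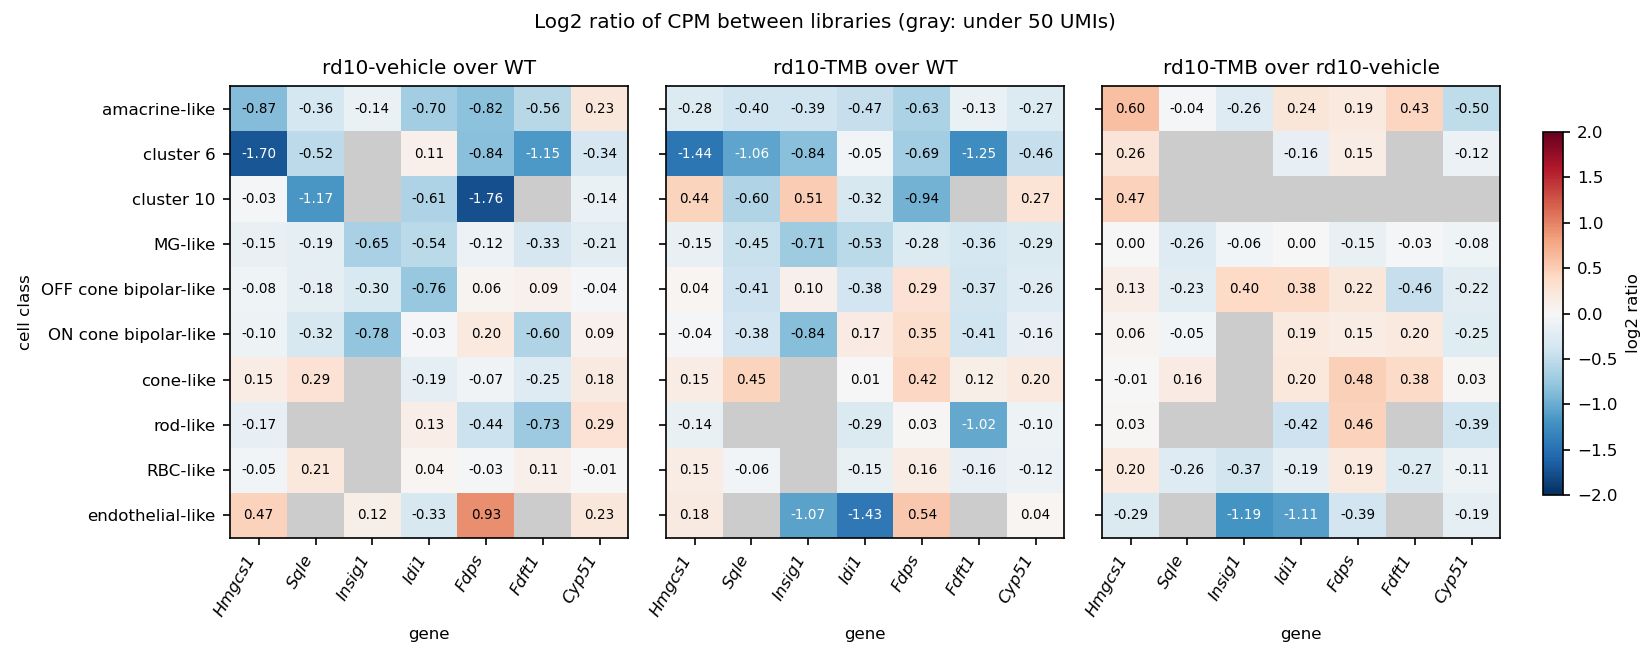
Log2 ratios of CPM between libraries for each member (columns) in each of the 10 classes (rows), in 3 panels, one per comparison, with blue for lower and red for higher in the first-named library and gray where both libraries together held under 50 UMIs. In MG-like cells the members run from -0.65 to -0.12 for rd10-vehicle over WT, while the amacrine-like row and clusters 6 and 10 hold larger negative ratios and the endothelial-like row holds a positive one for Fdps (0.93).

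At equal depth fewer MG-like cells of the rd10 libraries held a UMI of any member, but some single members differed between the thinned settings. MG-like cells were deeper in the rd10 libraries, with a median per cell of 6300 UMIs (WT), 8593.5 (rd10-vehicle) and 9454.5 (rd10-TMB). Without equalizing depth, 80.9%, 81.1% and 81.1% of the MG-like cells had a UMI of any member. After each cell was thinned to 1000 UMIs, leaving out 3, 16 and 21 shallower cells, these shares were 34.3% (30.3 to 38.6), 24.1% (22.4 to 25.8) and 22.8% (20.9 to 24.9). Thinned shares of cells with Insig1 were 5.88% (4.03 to 8.25), 3.96% (3.22 to 4.80) and 4.23% (3.33 to 5.29), against 27.9%, 24.6% and 25.2% unthinned, and the thinned intervals overlap. In RBC-like cells of WT, the class with the least Insig1, the thinned share was 0.249% and the unthinned share 1.98%, at a median depth of 5032 UMIs, so the share in MG-like cells lay above this background. For Idi1 the thinned shares in MG-like cells were 8.73% (6.46 to 11.5), 5.01% (4.18 to 5.94) and 5.21% (4.21 to 6.37). With cells thinned to 2000 UMIs instead, the shares were 48.8%, 40.7% and 38.8% for any member, 10.9%, 7.75% and 6.89% for Insig1 and 16.4%, 10.1% and 10.7% for Idi1. Between the libraries Hmgcs1 differed little at 2000 UMIs, with 13.04%, 13.8% and 13.3%. Cyp51 did too, with 5.34%, 5.73% and 5.27%. At 1000 UMIs Hmgcs1 had been at 9.30%, 7.39% and 7.01% and Cyp51 at 5.31%, 3.15% and 2.90%. The Cyp51 share of WT was thus nearly the same at both depths. Each thinning was a single random draw, and the spread between draws was not measured. The part of depth in the differences between these settings was not tested.

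Other measures moved together with genotype in the same cells. The summed level of 12 amacrine markers in MG-like cells was 838 (WT), 632 (rd10-vehicle) and 642 CPM (rd10-TMB). Most of it was Pax6 (761, 598 and 603 CPM), a gene raised in MG-like cells themselves, whereas Gad1 was at 8.13, 0.450 and 0.358 CPM and Snhg11 at 21.1, 4.64 and 4.77 CPM. Since amacrine-like cells held the highest sum of the compared classes, the ratios were recomputed after subtracting an amacrine-like profile scaled to the sum of these markers, Pax6 included, which takes out more than Gad1 and Snhg11 alone would. That gave Insig1 ratios of -0.74 and -0.76 and Idi1 ratios of -0.46 and -0.52, but Fdps ratios of 1.14 and 0.66 and Hmgcs1 ratios of 0.20 and -0.00. Insig1 and Idi1 were below WT in this setting too and Fdps was above it. As the scaling rests mostly on Pax6, the setting is no measure of amacrine RNA in these cells, whose part in the result was not tested. Rod markers, 10 in number, summed to 970, 1343 and 1457 CPM in MG-like cells. Astrocyte markers (7) summed to 219, 562 and 427 CPM, 6 lens markers to 1.51, 35.9 and 24.0 CPM and 5 erythrocyte markers to 0.602, 248 and 1.01 CPM, and their part in the result was not tested. With only WT cells holding Xist and no Y-linked UMI, log2 ratios to WT in rd10-vehicle and rd10-TMB were -0.69 and -0.75 for Insig1 and -0.66 and -0.66 for Idi1.

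Lcn2, a secreted protein of reactive glia, divided the rd10 MG-like cells. A Lcn2 UMI was present in 9 MG-like cells of WT, 653 of rd10-vehicle and 300 of rd10-TMB. The sum of the members was lower in the cells that had one, at 259 CPM (247 to 271) against 319 CPM (310 to 328) in rd10-vehicle and 248 CPM (233 to 263) against 298 CPM (289 to 308) in rd10-TMB. The cells with a Lcn2 UMI were deeper, with medians of 10153 against 8175 UMIs and 11722 against 9064.5 UMIs, and the part of depth in this was not tested. Insig1 was at 30.6 CPM with and 44.8 CPM without a Lcn2 UMI in rd10-vehicle, and at 29.3 and 41.3 CPM in rd10-TMB. Among cells without a Lcn2 UMI the WT level of Insig1, 63.9 CPM, still lay above both, with ratios of -0.52 and -0.63, of which the first is under the fold limit. Sqle in cells without a Lcn2 UMI was at 41.9 CPM in WT and 40.4 CPM in rd10-vehicle, but 32.2 CPM in rd10-TMB.

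**Figure D3:**
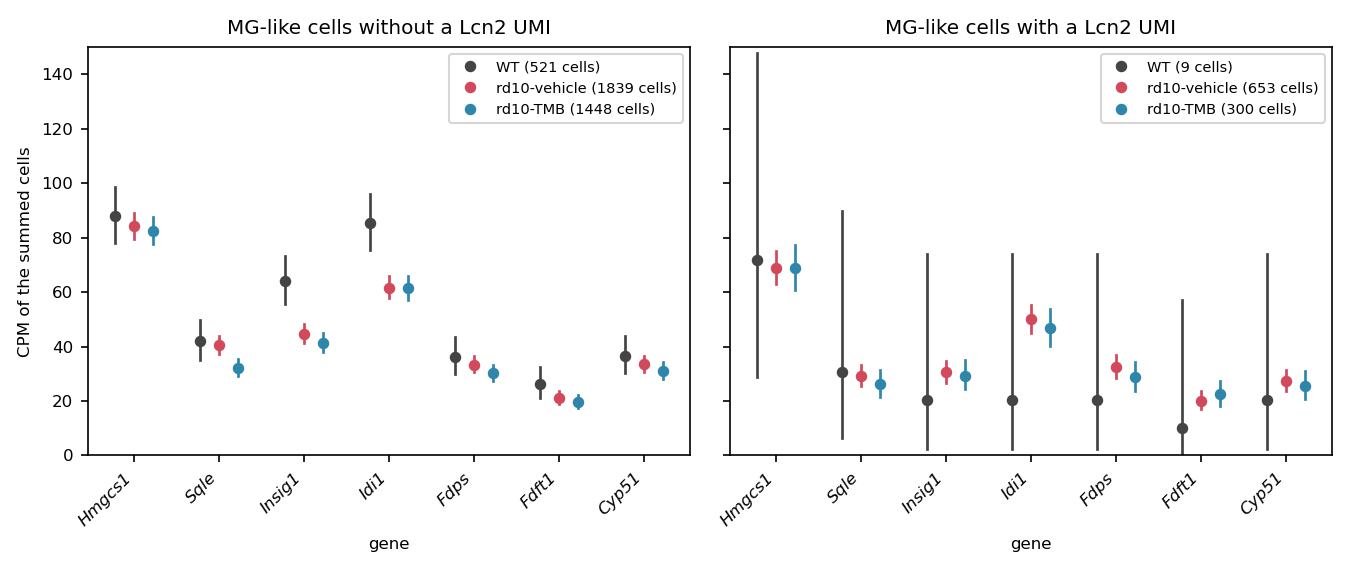
Levels of the members (CPM) in MG-like cells without (left) and with (right) a UMI of Lcn2, 1 point per library with exact 95% Poisson intervals. In the rd10 libraries Insig1 stands at 44.8 and 41.3 CPM on the left and at 30.6 and 29.3 CPM on the right, and the 9 WT cells on the right have wide intervals.

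The other steps of the pathway gave a context for the 7 members in MG-like cells. Of 13 further enzymes reported, all with enough UMIs, 2 were called lower and 0 higher in rd10-vehicle than in WT, and the same numbers held in rd10-TMB, at medians of -0.25 and -0.19. Over all genes 9.31% were called lower and 8.64% higher in rd10-vehicle, and 8.46% and 6.64% in rd10-TMB. The same shares stand beside the counts of the other lists below. The further enzymes called lower were Msmo1, the sterol methyl oxidase after Cyp51 (127, 77.5 and 84.7 CPM in WT, rd10-vehicle and rd10-TMB, ratios -0.72 and -0.59), and Dhcr7, a reductase of the last steps (-0.62 and -0.91). Mvk (0.21 and 0.08), Pmvk (0.05 and -0.06) and Mvd (0.02 and 0.07), which carry mevalonate toward the substrate of Idi1, did not differ beyond counting error.

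Among 6 genes of the SREBP machinery 0 were called in either rd10 library. Srebf2 was at 115 CPM in WT and at 97.2 and 96.9 CPM in the rd10 libraries, ratios of -0.24 and -0.25, and Insig2, the paralogue of Insig1, had ratios of -0.09 and -0.07. Mbtps2, the second protease that frees SREBP, had ratios of -0.58 and -0.36. Of 8 uptake and transport genes reported 7 had enough UMIs, and 1 was called higher (Fabp3, a fatty acid carrier, 1.51 and 1.80) and 1 lower (Npc1, which exports cholesterol from lysosomes, -0.63 and -0.59). Among fatty acid synthesis genes 10 of 11 had enough UMIs, with Me1 called higher in both rd10 libraries (0.73 and 0.76) and Acss2 (-0.72) and Elovl6 (-0.74) called lower in rd10-TMB, at medians of -0.28 and -0.27. Of 12 LXR targets and efflux genes, Mylip, a ubiquitin ligase, was called higher (0.96 and 0.66), and Abcg4 (-0.70 and -0.62) and Cyp46a1 (-1.19 and -0.89) were called lower, at medians of 0.18 and 0.15. Immediate-early genes (9), which dissociation can induce, had a median of 0.61 in both rd10 libraries with 5 called higher, and their part in the results on the members was not tested. For rd10-TMB over rd10-vehicle none of the genes of these 6 lists was called in MG-like cells.

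**Figure D4:**
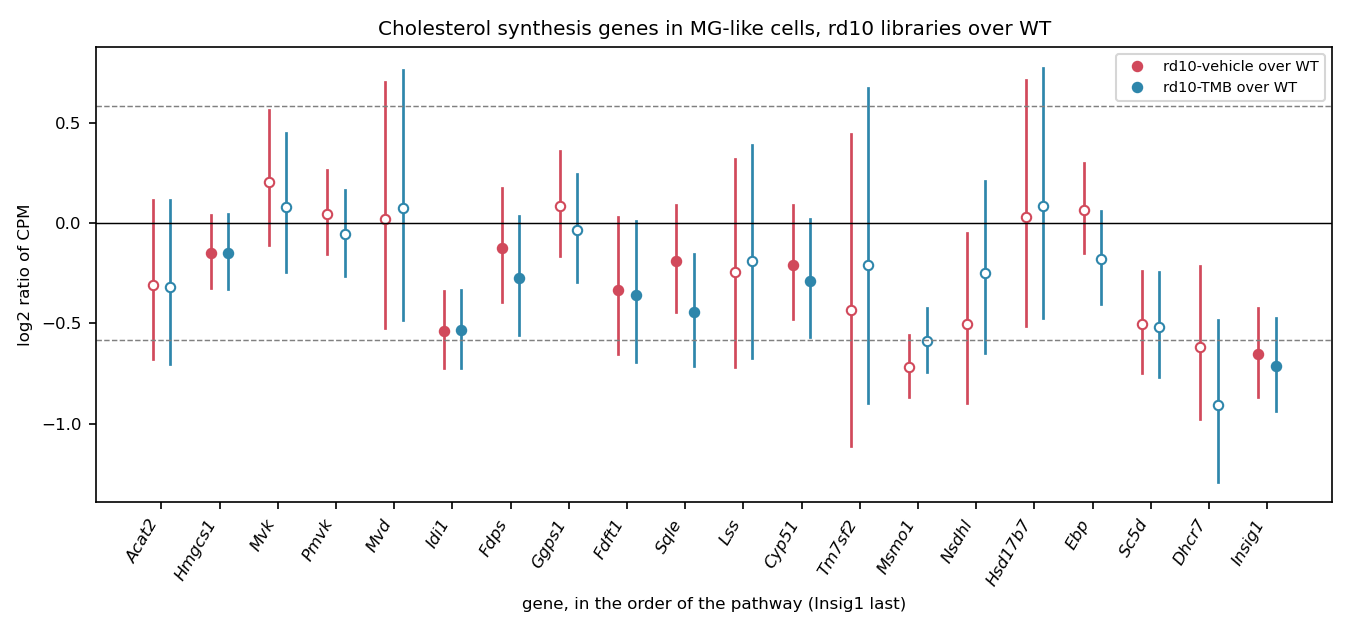
Log2 ratios of CPM in MG-like cells to the WT library for 20 genes in the order of the pathway, with Insig1 last, filled points for the members, open points for the other enzymes and bars for the exact 95% interval of counting error. Dashed lines mark a 1.5-fold difference. Members lie between -0.71 and -0.12, and Msmo1, Dhcr7 and Insig1 reach past the lower line.

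Amacrine-like cells, the highest of the 10 compared classes, held lower levels of several members in the rd10 libraries, but few rd10 cells were there (105 in rd10-vehicle and 83 in rd10-TMB, against 756 cells in WT). Of the 7 members 3 were called lower in rd10-vehicle than in WT, where 12.3% of genes were, and 1 in rd10-TMB, where 10.3% were. Hmgcs1 was at 334.7 (WT), 179.8 (rd10-vehicle) and 273.7 CPM (rd10-TMB), with a ratio of -0.87 (-1.29 to -0.52) for rd10-vehicle over WT. Fdps was at 276.1, 153.3 and 175.5 CPM, ratios of -0.82 (-1.28 to -0.44) and -0.63 (-1.06 to -0.27). Idi1 was at 172.4, 103.2 and 122 CPM, a ratio of -0.70 (-1.28 to -0.25) in rd10-vehicle. With cells thinned to 1000 UMIs Hmgcs1 (-0.28) and Idi1 (-0.22) were no longer past the fold in rd10-vehicle, and with the Xist selection of WT cells Fdps (-0.39) was not in rd10-TMB. Cyp51 went the other way in rd10-vehicle without being called, at 175.6, 203.4 and 142.8 CPM. The members had a median of -0.56 for rd10-vehicle over WT and -0.39 for rd10-TMB over WT, beside 0.03 and 0.07 over all genes.

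For rd10-TMB over rd10-vehicle in amacrine-like cells 1 of 7 members was called higher, Hmgcs1, where 5.1% of genes were, with a ratio of 0.60 (0.12 to 1.10). Taken as the mean over cells in place of the sum, so that each cell weighs alike, this ratio was -0.080, and the direction therefore depended on how cells were weighted.

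The amacrine-like class joins 2 clusters, which are given apart here. Cluster 5, led by the GABA-synthesis genes Gad2 and Gad1, had a 7-gene sum of 1403 CPM (1352 to 1454) in WT, 1351 CPM (1172 to 1550) in rd10-vehicle and 1354 CPM (1191 to 1534) in rd10-TMB, from 461, 43 and 35 cells. Cluster 9, led by Nhlh2, Ppp1r17, Ebf3 and the glycine transporter gene Slc6a9, had 1109 CPM (1044 to 1177), 558 CPM (456 to 675) and 559 CPM (447 to 691), from 295, 62 and 48 cells. In cluster 9 Idi1 was at 164 (WT), 47.8 (rd10-vehicle) and 39.0 CPM (rd10-TMB), whereas in cluster 5 its ratios were 0.016 (-0.67 to 0.54) and 0.16 (-0.42 to 0.62). Some members also had ratios below 0 in cluster 5, within counting error, with Hmgcs1 at -0.33 (-0.84 to 0.09) and Fdps at -0.29 (-0.86 to 0.17) in rd10-vehicle and Cyp51 at -0.52 (-1.22 to 0.01) in rd10-TMB. Fdps in cluster 9 was at 245, 90.3 and 58.5 CPM and Sqle at 91.6, 31.9 and 19.5 CPM. Hmgcs1 was at 287, 101 and 169 CPM there. Cyp51 was not lower in cluster 9, at 114, 154 and 150 CPM, and Insig1 was at 110, 106 and 58.5 CPM. The difference between the clusters was not tested, and fewer than 100 cells stood behind each rd10 value. The class's own markers also moved with genotype, with Tfap2b at 641, 64.8 and 38.7 CPM, Gad1 at 600, 233 and 363 CPM and Slc6a9 at 231, 752 and 622 CPM in WT, rd10-vehicle and rd10-TMB. Rod markers in amacrine-like cells summed to 1373, 607 and 1987 CPM, and their part in the result was not tested.

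**Figure D5:**
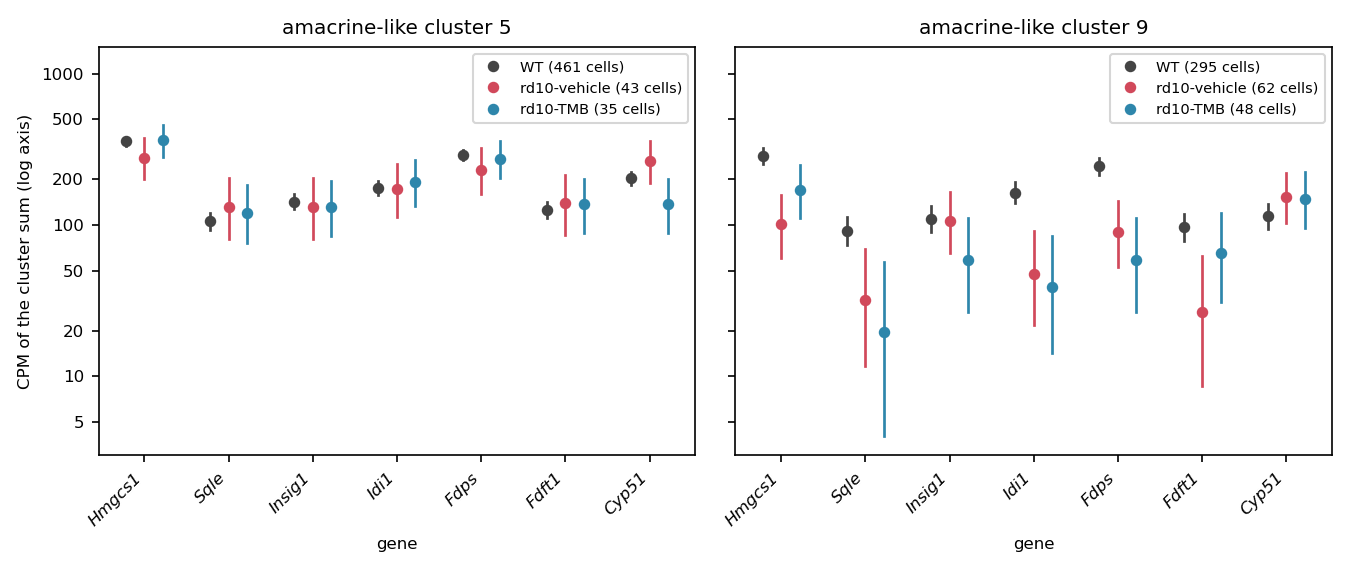
Levels of the members (CPM, log axis) in the amacrine-like clusters 5 (left) and 9 (right), 1 point per library with exact 95% Poisson intervals. In cluster 9 the rd10 points of Hmgcs1, Sqle, Idi1 and Fdps lie below WT, and in cluster 5 the points of the 3 libraries overlap for most genes.

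Clusters 6 and 10, both unnamed, also had members past the fold. In cluster 6, with 3 of 6 members called lower in rd10-vehicle against 7.7% of genes, Hmgcs1 was at 131.7 (WT), 39.3 (rd10-vehicle) and 47.5 CPM (rd10-TMB), ratios of -1.70 (-2.41 to -1.13) and -1.44 (-2.07 to -0.90). In rd10-TMB 5 of 7 were called lower against 8.03% of genes, with Sqle (-1.06) and Insig1 (-0.84) beside Hmgcs1, Fdps (131.7, 72.8 and 80.6 CPM) and Fdft1 (56.9, 24.7 and 23.0 CPM). Insig1 was at 40.2, 18.9 and 21.6 CPM, and for rd10-vehicle it had too few UMIs to be called, at a ratio of -1.02 (-2.13 to -0.14). With only WT cells holding Xist and no Y-linked UMI, Hmgcs1 alone of these calls in cluster 6 stayed past the fold. Idi1 stayed level in cluster 6, at 82.6, 88.8 and 79.2 CPM. In cluster 10 the calls were 3 of 5 in rd10-vehicle against 10.9% of genes (Fdps, Sqle and Idi1) and 2 of 6 in rd10-TMB against 8.68% (Fdps and Sqle). Fdps there was at 101.9, 27.6 and 51.5 CPM and kept its calls under every alternative that gave a value. Thinning and the subtraction of the amacrine-like profile gave no value in cluster 10. Sqle lost its call in 1 of 10 alternatives in rd10-vehicle (-1.17, lost as the mean over cells) and in 5 of 10 in rd10-TMB (-0.60). Idi1 in rd10-vehicle (-0.61) lost its call in 2 of 10.

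The summed level of the 12 amacrine markers was also lower in the rd10 libraries in these clusters. It was 3206 (WT), 688 (rd10-vehicle) and 661 CPM (rd10-TMB) for cluster 6, and 3313, 679 and 1541 CPM for cluster 10. When the amacrine-like profile was subtracted in cluster 6, the median of the members turned from -0.68 to 0.97 in rd10-vehicle and from -0.84 to 1.07 in rd10-TMB.

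Cone bipolar-like cells had scattered calls. In ON cone bipolar-like cells 2 of 7 members were called lower in rd10-vehicle, against 7.19% of genes, and 1 in rd10-TMB, against 6.73%. Insig1 was at 28.0 (WT), 16.1 (rd10-vehicle) and 15.3 CPM (rd10-TMB), ratios of -0.78 (-1.65 to 0.04) and -0.84 (-1.76 to -0.00), and Fdft1 had a ratio of -0.60 (-1.24 to 0.02) in rd10-vehicle, a call lost in 5 of 12 alternatives (down to -0.22 with the Xist selection of WT cells). Amacrine markers summed to 1113, 670 and 665 CPM in these cells, and with the amacrine-like profile subtracted as in MG-like cells Insig1 stayed at -0.89 and -0.74 and Fdft1 was at -0.45 in rd10-vehicle. The same subtraction took Hmgcs1 from -0.10 and -0.04 to 2.97 and 2.56, and the median of the members from -0.10 and -0.16 to 0.31 and 0.15. Such large positive ratios can rest on few WT UMIs left by the subtraction. In OFF cone bipolar-like cells 1 of 7 was called lower in rd10-vehicle, against 3.18% of genes. It was Idi1, at 63.9, 37.2 and 48.7 CPM, with a ratio of -0.76 (-1.39 to -0.19) that was -0.66 and -0.85 in its clusters 7 and 8 taken alone. This call was lost as the mean over cells (-0.39), without the 5% of cells with the most UMIs (-0.47) and with cells thinned to 1000 UMIs (-0.47).

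Photoreceptors and RBC-like cells had low sums of the 7 genes and few calls, although Fdps in RBC-like cells was at 74.3 (WT), 72.6 (rd10-vehicle) and 83.0 CPM (rd10-TMB), in the last second only to amacrine-like cells among the compared classes. Rod-like cells had enough UMIs for 5 members, of which Fdft1 was called lower in rd10-vehicle (against 8.47% of genes) and in rd10-TMB (against 7.25%), at 28.4, 16.3 and 13.5 CPM and ratios of -0.73 (-1.77 to 0.07) and -1.02 (-1.96 to -0.26). These calls were lost with cells thinned to 1000 UMIs for rd10-vehicle (-0.35) and with cells of at least 1000 detected genes for rd10-TMB (-0.26). In cone-like cells 0 of 6 were called against WT, where 3.89% of genes were called higher and 4.92% lower in rd10-vehicle and 3.2% and 4.96% in rd10-TMB. All 6 had a ratio above 0 for rd10-TMB over WT, at a median of 0.17 beside -0.04 over all genes, though each interval held 0. In RBC-like cells 0 of 6 were called against WT, where 4.03% of genes were called higher and 2.55% lower in rd10-vehicle and 3.11% and 2.85% in rd10-TMB. Their sum was 191.9 (WT), 201.1 (rd10-vehicle) and 201.9 CPM (rd10-TMB).

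Endothelial-like cells, which line the retinal vessels, were the one class with a member called higher than in WT. Fdps was at 38.7 (WT), 74.3 (rd10-vehicle) and 56.4 CPM (rd10-TMB), a ratio of 0.93 (0.48 to 1.42) for rd10-vehicle, the 1 of 5 members called there against 6.9% of genes. With only WT cells holding Xist and no Y-linked UMI it was 0.54, under the 1.5-fold limit. Most of the 3′ end of Fdps is shared with other annotated genes, as given above. Insig1 and Idi1 were called lower in rd10-TMB, under every alternative that gave a value, and thinning gave none in this class. Insig1 was at 29.4, 32.1 and 13.5 CPM, with ratios of -1.07 (-2.03 to -0.27) to WT and -1.19 (-2.12 to -0.45) to rd10-vehicle. Idi1 was at 46.6, 37.1 and 16.7 CPM, with ratios of -1.43 (-2.26 to -0.75) and -1.11 (-1.94 to -0.43). These 2 of 5 members stood against 11.5% of genes called lower for rd10-TMB over WT and 3.64% for rd10-TMB over rd10-vehicle. Hmgcs1, at 39.4, 54.9 and 44.5 CPM, and Cyp51, at 28.7, 33.8 and 29.4 CPM, lay near their WT levels in rd10-TMB. Against rd10-vehicle all 5 members with enough UMIs were below 0 in rd10-TMB, at a median of -0.39 beside -0.0016 over all genes, with Hmgcs1 at -0.29 (-0.80 to 0.19), Fdps at -0.39 (-0.83 to 0.03) and Cyp51 at -0.19 (-0.83 to 0.41) within counting error. The class held 137, 156 and 100 cells. Pericyte markers summed to 5595, 8662 and 8859 CPM in it and endothelial markers to 11209, 13829 and 12619 CPM, and their part in these values was not tested.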

How the data were processed

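Retinal cells were dissociated with papain, and 1 10x Genomics v3 library was made per group. The authors aligned reads to mm10 with Cell Ranger 6.0.1, removed doublets with Scrublet, kept cells with at least 500 detected genes and integrated libraries with Harmony (Seurat 3.2.2, versions from the submitters' processing notes). Values in the deposited matrix are on a natural log scale, ln(1 + 10000 × count / cell total). Each value was turned back to a count with the deposited total UMI count of the cell, and 100% of 32620606 entries came out whole within 0.001 UMI. No doublet caller was run again. The authors' cluster numbers were used, and clusters were named by marker lists, so names were rebuilt here. The authors' own differential tests (MAST) were not used.

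UMIs were summed per class and library, for classes with at least 50 cells in every library, and divided by the class total. Log2 ratios have a pseudocount of 1 UMI, with exact conditional 95% intervals. Levels have exact Poisson intervals and shares of cells exact Clopper-Pearson intervals. These cover counting error only, since there are no replicate libraries and hence no p-values. A gene was called at 1.5-fold with at least 50 UMIs over both libraries. Genes named outside the members were those of the lists past this fold and the 5 most alike in pattern, with further genes of the lists named for their place in the pathway. Some genes of the wider lists are not reported here. Members and lists were chosen with earlier results of these data known. In simulated counts 97.89% of 2-fold changes were called for rd10-vehicle over WT in MG-like cells (12360 genes) and 94.65% for rd10-TMB over rd10-vehicle in endothelial-like cells (7166 genes), and 4.265% and 3.625% of unchanged genes were called. The simulated counts held counting error only, with no variation between cells, animals or pools. These shares are thus not the rates of right and false calls between the real libraries. Alternatives were other scalings, pseudocounts, cell filters, thinning and call limits. Subtraction of the amacrine-like profile, the Lcn2 split, single clusters and removal of shared barcodes were added after seeing the data. Promoters and positions are from RefSeq GRCm38.p6. Gene strands and transcripts are from the GENCODE annotation of the same build, whose exons also bounded the printed promoter stretches. Python 3.11.15, NumPy 2.4.6, SciPy 1.17.1, pandas 2.3.3 and Matplotlib 3.10.9 were used.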

Additional observations from a re-analysis of the deposited data

Results flagged for a closer look

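For rd10-vehicle over WT, Fdps was past the fold limit in opposite directions in different classes. Its log2 ratio was -0.82 in amacrine-like cells, -0.84 in cluster 6 and -1.76 in cluster 10, but 0.93 in endothelial-like cells. The difference between the classes was not tested. The 3′ end of Fdps shares 65.3% of its 60-base words with 6 other annotated genes, and its part in these values was not tested.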

How the results depend on the processing

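No paired analysis was possible because each group is 1 library. Of the ratios of members over all alternatives 1977 moved by less than the counting error and 74 by more, and 8 that were past 1.5-fold changed direction. A further 163 values, of ratios within 1.5-fold, also had the opposite sign, so that 90 of the 178 ratios had no sign that held under every alternative. In MG-like cells the median of the members ran from -0.55 to -0.09 for rd10-vehicle over WT, from -0.55 to -0.28 for rd10-TMB over WT and from -0.20 to -0.04 for rd10-TMB over rd10-vehicle, and the lowest for rd10-vehicle, -0.55, came from thinning to 1000 UMIs per cell. Insig1 stayed below WT in all of them (-0.74 to -0.52 and -0.76 to -0.46). The number of members called in MG-like cells was 1 for each comparison with WT. For rd10-vehicle it was 3 with thinning, 2 with WT cells holding Xist and no Y-linked UMI, 2 with the amacrine-like profile subtracted, and 0 without the 5% of cells with the most UMIs, without cells with a Lcn2 UMI or with a 2-fold limit. For rd10-TMB it was 3 with thinning, 2 with the Xist selection, 2 with the subtraction and 0 with the 2-fold limit. The 3 with thinning, which was 1 random draw, did not include Insig1 (-0.55 and -0.46). Of 31 calls of members over all classes, 8 held at 1.5-fold under every alternative that gave a value and 23 were lost in at least 1. Thinning gave no value in cluster 10, in endothelial-like cells or for rd10-TMB over WT in ON cone bipolar-like cells. The subtraction gave none in cluster 10, so most of the 8 calls were not put to every setting. The cause of the losses was not tested, except that the 2-fold limit is stricter by construction. With the amacrine-like profile subtracted, cluster 6 turned to medians of 0.97 and 1.07, Hmgcs1 to 1.08 and 1.07, Fdps to 0.50 and 0.63 and, for rd10-TMB, Sqle to 0.17 and Insig1 to 3.17. As remainders below 0 were set to 0, these ratios can rest on few or no WT UMIs. In amacrine-like cells Idi1 for rd10-vehicle over WT was 0.016 in cluster 5 alone, and Hmgcs1 for rd10-TMB over rd10-vehicle was -0.080 as the mean over cells. Depth limits the small classes most: in cluster 10 of rd10-vehicle 3 UMIs are worth 8.28 CPM, against 0.135 CPM in MG-like cells of that library.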

Other observations

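Pmvk, which phosphorylates mevalonate phosphate upstream of Idi1 and is not among the 7 members, was chosen here after its values were seen. In rod-like cells it was at 39.5 CPM (30.8 to 49.8) in WT, 234.7 CPM (203 to 269) in rd10-vehicle and 113.2 CPM (95.4 to 133) in rd10-TMB. The cone-like cells had 49.8, 122.0 and 89.3 CPM in the same order, with log2 ratios to WT of 1.28 (0.92 to 1.68) and 0.83 (0.44 to 1.25). In MG-like cells Pmvk was at 65.1, 67.4 and 62.8 CPM, with no difference beyond counting error.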
